A study of Mus musculus with 4 samples.

Results

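The 8 genes described here are lineage transcripts of cells other than CD4 T cells: *Ighm*, *Cd79a*, *Cd79b* and *Ms4a1* of B cells, *Cd8a* and *Cd8b1* of CD8 T cells, and *Ncr1* and *Klrb1c* of natural killer (NK) cells. They were taken by name, with earlier results of these data known, and each matched 1 of the 47729 Ensembl genes in the count table by its mouse symbol. They were read in RNA from sorted regulatory T (Treg) cells, as a check of purity in each library, and *Ighm* was set against the other B-cell genes. The cells that gave these transcripts were not identified. Of the 4 libraries, 2 came from mice with an intact *Tfrc* gene (*Tfrc* +/+ *Foxp3* YFP-Cre/+, called WT). The other two came from mice with floxed *Tfrc* (*Tfrc* fl/fl *Foxp3* YFP-Cre/+, called TfR1-deficient). All animals were female and of the C57BL/6 strain, and the study's reporting summary gives an age of 6 to 8 weeks for mice other than male knockouts. Both genotypes carried the YFP-Cre allele at the X-linked *Foxp3* gene on a single X chromosome, so Cre and YFP are made only in Treg cells that use that chromosome. The sort kept cells positive for CD25 and YFP out of a CD4 T-cell preparation, from spleen according to the labels and from spleen and lymph nodes according to a supplementary legend. The number of mice behind a library is not given in the sources used here, so the tests measure the spread between libraries.

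The B-cell receptor is a membrane immunoglobulin, whose mu heavy chain constant region is encoded by *Ighm*, held together with the signalling chains CD79A (*Cd79a*) and CD79B (*Cd79b*), and *Ms4a1* encodes the B-cell surface protein CD20. The CD8 co-receptor of cytotoxic T cells is a pair of an alpha chain (*Cd8a*) and a beta chain (*Cd8b1*). The alpha chain can also reach the surface without the beta chain, as in a class of dendritic cells, whereas the beta chain needs the alpha chain. *Ncr1* encodes NKp46, an activating receptor of NK cells, and *Klrb1c* encodes the lectin-like receptor recognised as the NK1.1 antigen in C57BL/6 mice, also carried by NKT cells.

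Totals ranged from 10841939 to 17278448 counts per library. CPM are counts scaled to library size and by TMM, a correction for composition. Levels of different genes are compared as CPM per kb of annotated exon, except where counts or CPM without division by length are named. The labelled cell type was present in all 4 libraries: *Cd4* stood at 485 to 799 CPM, *Foxp3* at 114 to 194 CPM and the summed T-cell and Treg list of 15 genes at 11090 to 13730 CPM. *Tfrc*, the targeted gene, had 50.7 and 54.0 CPM in WT and 56.0 and 48.2 CPM in libraries labelled TfR1-deficient, so gene-level counts did not separate the labels (log2 fold change -0.0065, standard error 0.16, edgeR adjusted p = 0.999). Directions below therefore rest on the labels of the libraries. One pair of libraries stood apart in another way. WT replicate 1, at 782 CPM, and TfR1-deficient replicate 2, at 2583 CPM, held high sums of 14 macrophage and monocyte genes, which summed to 28.7 CPM in the other WT library and 31.9 CPM in the other TfR1-deficient library. All 14 were higher in both of the former libraries than in both of the latter. Results on the 8 genes are therefore given library by library.

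The 8 genes did not stand at 1 common level. Per kb of exon, *Ighm* stood at 786 CPM or more in every library, *Cd79b* at 16.8 to 26.9 and *Cd8b1* at 7.61 to 8.69, while no other of the 8 exceeded 2.31. *Ms4a1*, *Cd8a* and *Ncr1*, 1 from each of the 3 lineages, had at most 11 counts in any library. Within the receptor and co-receptor pairs, *Cd79b* was far above *Cd79a* and *Cd8b1* far above *Cd8a*. No gene of the 8 was called different between the genotypes. In bulk RNA, fewer cells of a type and less RNA per cell cannot be told apart.

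**Figure D1:**
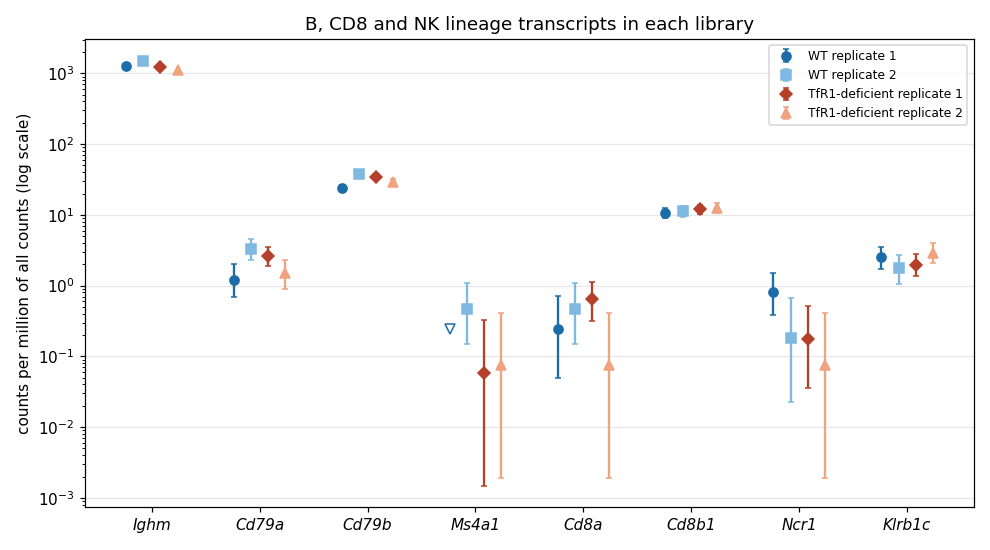
Share of all counts taken by each of the 8 genes in each library, in CPM without TMM scaling on a log axis, with the exact 95% interval of the share as the bar; the open triangle for *Ms4a1* in WT replicate 1 marks the limit that a count of 0 allows. *Ighm* lay at 1097 or more in all 4 libraries, and *Ms4a1*, *Cd8a* and *Ncr1* lay below 1.

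The lower partner of each signalling or co-receptor pair is shown by its promoter, from 250 bases before to 50 bases after the annotated start, since these 2 genes carry the contrast within their pairs. Sequences are from RefSeq on GRCm38.p6, whose table held promoters for 4 of the 8 genes, *Cd79a*, *Cd8a*, *Ncr1* and *Klrb1c*. Capitals mark matches, on either strand, to an ETS core (GGAAGT), a RUNX core (TGTGGT), an octamer (ATGCAAAT) or an E-box (CAGCTG), none of which overlapped another in these windows. The *Cd79a* window is chr7:24897247-24897546 and the *Cd8a* window chr6:71373177-71373476, both on the plus strand.
Cd79a: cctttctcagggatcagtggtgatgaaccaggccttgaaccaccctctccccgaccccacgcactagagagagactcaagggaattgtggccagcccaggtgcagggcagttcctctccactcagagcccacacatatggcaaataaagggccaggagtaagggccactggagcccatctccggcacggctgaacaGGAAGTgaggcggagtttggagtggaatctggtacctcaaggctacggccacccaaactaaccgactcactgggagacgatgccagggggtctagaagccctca
Cd8a: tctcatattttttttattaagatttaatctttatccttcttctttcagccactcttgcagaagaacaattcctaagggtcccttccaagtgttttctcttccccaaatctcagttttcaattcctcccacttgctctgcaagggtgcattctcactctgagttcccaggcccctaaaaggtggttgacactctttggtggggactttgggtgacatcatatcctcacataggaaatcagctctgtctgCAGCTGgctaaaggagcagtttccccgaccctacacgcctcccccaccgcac
The *Cd79a* window held 1 match, to the ETS core, and the *Cd8a* window 1 match, to the E-box. Of 32851 promoters of the same length in the table, 23.8% held the ETS core and 16.3% the E-box, so both matches are common. The RUNX core, in 16.8% of promoters, and the octamer, in 1.74%, were found in neither window. These matches describe letters in a window and say nothing of binding.

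*Ighm* (ENSMUSG00000076617) lies on chromosome 12 from 114659078 to 114660941 on the minus strand, in the GENCODE vM1 annotation of NCBIM37 (mm9), which is the source of all gene positions below. It was counted 15514 times in WT replicate 1, 16377 times in WT replicate 2, 21488 times in TfR1-deficient replicate 1 and 14753 times in TfR1-deficient replicate 2. These counts correspond to 1268, 1533, 1236 and 1075 CPM in the same order. By count *Ighm* ranked 68th, 55th, 71st and 91st among all genes of these libraries. Every library was thus high, and the exact 95% interval of its share of counts was narrow, from 1079 to 1114 CPM without TMM scaling in the lowest library. The level was 1401 ± 187 CPM in WT and 1156 ± 114 CPM in TfR1-deficient libraries (SD, n = 2 each). Both TfR1-deficient libraries lay below both WT libraries, by as little as 1236 against 1268 CPM. Across the 12536 genes tested, 18.9% had both TfR1-deficient libraries below both WT libraries. The log2 fold change of *Ighm* was -0.28 (standard error 0.17, edgeR adjusted p = 0.934), and the gene was not called. Replicates differed by 0.27 in WT and 0.20 in TfR1-deficient libraries on the log2 scale, close to the size of that change. Relative to the summed *Cd3d*, *Cd3e* and *Cd3g* counts the log2 fold change was -0.044.

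The level of *Ighm* was of the order of T-cell receptor genes. Per kb of exon it stood at 928, 1121, 904 and 786 CPM per kb in the library order above. *Trac*, the constant region of the T-cell receptor alpha chain, stood at 2582 to 3706 CPM per kb, so that *Ighm* reached 34.9%, 30.3%, 26.5% and 30.4% of its level per kb. Against *Cd4*, the co-receptor used to isolate the cells, *Ighm* was 4.68 to 7.52 times as high per kb.

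No other gene of the B-cell receptor approached it. *Cd79b* (chromosome 11, 106172655 to 106176076, minus strand) was counted 295, 411, 592 and 392 times in the same library order, or 24.1, 38.5, 34.1 and 28.6 CPM. WT replicate 1 was the lowest and WT replicate 2 the highest, with both TfR1-deficient libraries between them. Per kb of exon *Ighm* was 55.1, 41.7, 38.0 and 39.4 times as high as *Cd79b*.

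*Cd79a* (chromosome 7, 25682400 to 25687216, plus strand) was counted 15, 36, 45 and 20 times, or 1.23, 3.37, 2.59 and 1.46 CPM. Again the WT libraries held both the lowest and the highest value, and the genotypes overlapped. *Ighm* was 485 to 1102 times as high per kb as *Cd79a*. The chains CD79A and CD79B are made for the same receptor, but *Cd79b* was 20.0, 11.6, 13.4 and 20.0 times as high as *Cd79a* per kb of exon. The exact 95% intervals of that ratio ranged from a lowest bound of 8.26 to a highest bound of 36.2, so the excess of *Cd79b* exceeded counting error in every library.

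*Ms4a1* (chromosome 19, 11324654 to 11340669, minus strand) had 0, 5, 1 and 1 counts. The count of 0 in WT replicate 1 allows up to 0.243 unscaled CPM by the limit of 3 counts, and its exact 95% interval reached 0.298. The 5 counts in WT replicate 2 gave an exact 95% interval of 0.150 to 1.08. All 4 libraries were thus near 0. An annotated gene on the opposite strand spans *Ms4a1*, and since the strand setting of the counting is not given, these few counts could come from either.

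The *Ighm* level was also set against the sum of the other 3 B-cell genes, *Cd79a*, *Cd79b* and *Ms4a1*, within each library. Per kb of exon, *Ighm* was 52.4 times their sum in WT replicate 1, 38.2 times in WT replicate 2, 35.3 times in TfR1-deficient replicate 1 and 37.5 times in TfR1-deficient replicate 2. WT replicate 1 stood apart and the other 3 libraries lay close together. On the log2 scale of CPM, without division by length, the ratio was 5.41 ± 0.33 in WT and 5.11 ± 0.059 in TfR1-deficient libraries (SD, n = 2 each), a difference of -0.30. The two-sided exact permutation test gave p = 0.333, the smallest value that 2 libraries against 2 allow, so this design could not pass a threshold of 0.05. Without WT replicate 1 the difference was -0.064.

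A wider B-cell list of 21 genes without immunoglobulin genes summed to 51.2, 65.2, 58.6 and 57.3 CPM per kb, or 5.52% to 7.28% of *Ighm* alone per kb. Of that sum per kb, 69.9% to 87.9% came from only 3 genes: *Cd79b*, *Cd72*, which encodes an inhibitory co-receptor of B cells, and *Ralgps2*, which encodes an exchange factor for a Ras-like GTPase. *Cd72* stood at 35.4, 52.0, 36.2 and 26.3 CPM and *Ralgps2* at 71.9, 96.8, 121 and 86.9 CPM. These 3 were picked out after their values were seen.

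*Pax5* and *Ebf1*, transcription factors that define B cells, were at or near 0. *Pax5*, which holds B-cell identity, had 0, 0, 5 and 6 counts, and *Ebf1*, which specifies the lineage, had 2, 1, 1 and 1. Together with *Ms4a1*, these 3 genes summed to at most 0.195 CPM per kb in any library, at most 0.0209% of *Ighm* per kb. Among other listed transcriptional regulators, *Spib* had 0, 0, 5 and 3 counts. *Pou2af1* was not near 0, with 76, 39, 58 and 87 counts, or 3.34 to 6.34 CPM. In the whole list, 8 of 21 genes had under 10 counts in every library. Of the 12 that passed the filter on low counts, 6 had a higher and 6 a lower fitted value in TfR1-deficient libraries and 0 were called, with a median log2 fold change of -0.015 beside 0.0085 over all genes tested.

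Part of the list moved with the macrophage genes. *Bank1* and *Btk*, which encode a scaffold and a kinase of B-cell receptor signalling, were highest in the macrophage-rich libraries, WT replicate 1 (14.1 and 3.43 CPM) and TfR1-deficient replicate 2 (29.4 and 5.83 CPM). The other libraries had at most 8.14 and 2.62 CPM. *Blnk*, an adaptor of the same pathway, had 23 and 50 counts in those libraries and 0 in both others. In all, 8 of the 21 genes were higher in both macrophage-rich libraries than in both others, while 6, among them *Cd79a*, *Cd79b*, *Cd72* and *Ralgps2*, were lower in both. Over all 12536 genes tested, 2864 were higher and 3204 lower in that comparison. *Ighm* did neither, since WT replicate 1 was above TfR1-deficient replicate 1 and below WT replicate 2. The part of macrophage RNA in these values was not tested.

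The other immunoglobulin genes and segments that could be found did not follow *Ighm*. The 5 other heavy-chain constant genes that could be found had 13, 11, 6 and 9 counts in sum. *Ighm* held at least 99.9% of the counts of these 6 genes in each library. *Ighd*, *Ighg2b*, *Ighg3* and *Igha* were not matched by name, so this share may leave some of them out. The 25 heavy-chain variable segments annotated in GENCODE vM1 had 4, 12, 14 and 106 counts. These equal 0.0258%, 0.0733%, 0.0651% and 0.718% of the *Ighm* count, without division by length. That annotation held 32799 of the 47729 genes in the count table. Segments outside it are missing from these sums at every receptor locus, so the shares may be too low. TfR1-deficient replicate 2 was far above the other libraries in variable segments while it was the lowest in *Ighm* CPM. At the T-cell receptor loci, 22 beta-chain variable segments had 32.7 to 39.0 counts for every 100 of the constant genes *Trbc1* and *Trbc2*. The 34 alpha- and delta-chain variable segments had 980, 1038, 1929 and 1433 counts. *Trac* had 13421, 16350, 24493 and 14636, so that share was lower. Only 5 of the 25 heavy-chain segments had a count in any library, against 20 of the 22 beta-chain segments. These shares are thus not a like measure across loci.

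The annotated heavy-chain joining segments, which lie 5.78 to 7.05 kb upstream of *Ighm*, were counted more often than the variable segments in 3 of the 4 libraries. The 4 segments summed to 82, 71, 89 and 34 counts, and only TfR1-deficient replicate 2 had fewer joining than variable counts. Most of them fell on the farthest segment, Gm16878, with 50, 51, 75 and 29 counts. Joining segments took 0.230% to 0.529% of the *Ighm* count and are very short, so their counts depend on how reads across their ends were assigned.

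Light chains, which pair with the heavy chain in an antibody, were also low. *Igkc*, the kappa constant gene, had 118, 80, 332 and 199 counts, or 9.65, 7.49, 19.1 and 14.5 CPM. Both TfR1-deficient libraries were above both WT libraries, as in 16% of genes tested. The gene was not called (log2 fold change 0.97, standard error 0.30, edgeR adjusted p = 0.911). Its unadjusted edgeR p was 0.0217. Of all genes tested, 4.08% had an unadjusted p under 0.05 with a log2 change of at least 0.5. Per kb, *Ighm* was 31.1, 48.4, 15.3 and 17.5 times as high as *Igkc*. The 55 annotated kappa variable segments had 35, 16, 22 and 136 counts, and the 3 annotated lambda variable segments 25, 14, 4 and 150.

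The plasma-cell gene *Jchain*, which encodes the joining chain of secreted IgM and IgA, stood at 2.04, 5.05, 6.73 and 12.8 CPM. Both TfR1-deficient libraries were above both WT libraries, as in 16% of genes tested (log2 fold change 1.46, standard error 0.58, edgeR adjusted p = 0.911). TfR1-deficient replicate 2 was thus the highest library for heavy, kappa and lambda variable segments and for *Jchain*. Of 6 plasma-cell genes, *Tnfrsf17* was at 0 in all libraries and *Mzb1* had 1, 0, 0 and 6 counts. The 2 that passed the filter, *Jchain* and *Prdm1*, moved in opposite directions and were not called. *Prdm1* stood at 5.23, 3.28, 2.36 and 1.9 CPM (log2 fold change -0.996, standard error 0.44, edgeR adjusted p = 0.911). Both its TfR1-deficient libraries lay below both WT libraries, as in 18.9% of genes tested.

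**Figure D2:**
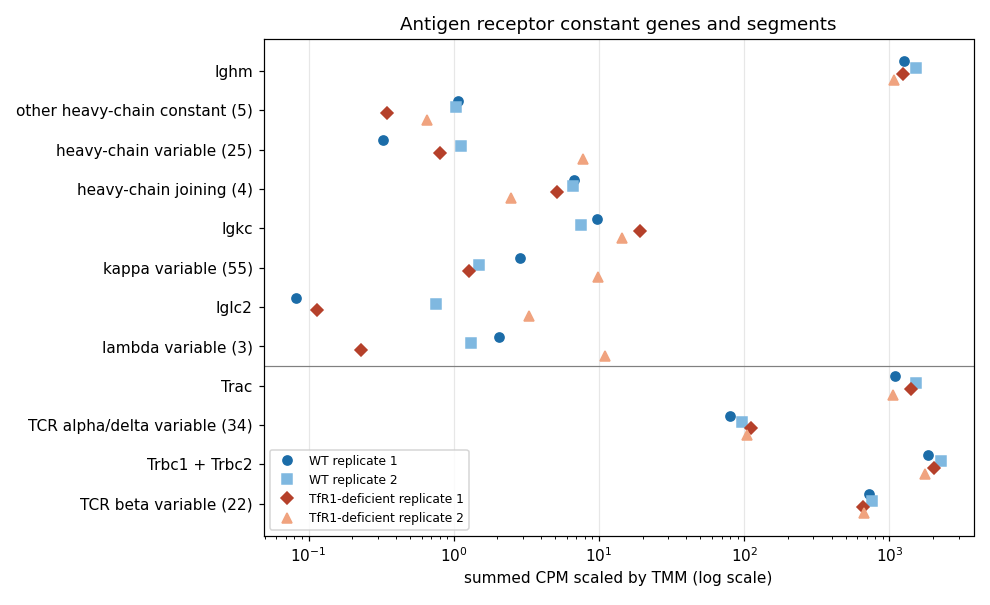
Summed CPM, not divided by length and on a log scale, of constant genes and of annotated variable and joining segments at the immunoglobulin loci (above the line) and the T-cell receptor loci (below the line) in each library, with the number of genes or segments in brackets. *Ighm* stood beside *Trac*, at 1075 to 1533 CPM, while every other immunoglobulin class lay below 20 CPM.

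Both CD8 chains are encoded on chromosome 6, *Cd8b1* from 71272830 to 71287471 and *Cd8a* from 71323421 to 71329165, both on the plus strand and 36.0 kb apart. *Cd8b1* was counted 132, 121, 207 and 169 times, or 10.8, 11.3, 11.9 and 12.3 CPM, in the library order used above. It was the steadiest of the 8 genes, with a highest library only 1.14 times the lowest. Both TfR1-deficient libraries lay above both WT libraries, at 12.1 ± 0.29 against 11.1 ± 0.38 CPM (SD, n = 2 each). Of all genes tested, 16% had both TfR1-deficient libraries above both WT libraries. The log2 fold change was 0.13 (standard error 0.25, edgeR adjusted p = 0.977), or 0.37 relative to the summed *Cd3d*, *Cd3e* and *Cd3g* counts, and the exact 95% intervals of the 4 libraries overlapped, from 8.93 to 12.7 unscaled CPM in WT replicate 1 up to 10.7 to 14.6 in TfR1-deficient replicate 2.

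*Cd8a* had 3, 5, 11 and 1 counts, or 0.245, 0.468, 0.633 and 0.0729 CPM. The TfR1-deficient libraries held both its highest and its lowest value. Per kb of exon, *Cd8b1* was 97.1, 53.4, 41.5 and 373 times as high as *Cd8a*. Because *Cd8a* had so few counts, the exact 95% interval of that ratio ran from 66.1 to 14820 in TfR1-deficient replicate 2, and its lowest bound in any library was 22.3, in WT replicate 2. The excess of the beta over the alpha chain was therefore beyond counting error in every library, while its order between libraries was not. Set against *Cd4* per kb, *Cd8b1* stood at 3.84% to 6.98% and *Cd8a* at 0.0167% to 0.168%.

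Other genes of cytotoxic T cells were described from a list of 8 that includes both CD8 chains. *Nkg7*, a protein of cytotoxic granules, stood at 48.3, 51.2, 37.8 and 40.2 CPM, and *Ccl5*, a chemokine of effector T and NK cells, at 8.34 to 10.1 CPM. *Runx3*, a transcription factor of CD8 T cells, stood at 20.1, 12.4, 11.6 and 14.8 CPM. *Gzmk*, a granzyme, had 12, 1, 4 and 0 counts. *Eomes*, a transcription factor of memory CD8 T and NK cells, stood at 1.06 and 1.12 CPM in WT and 2.24 and 2.40 CPM in TfR1-deficient libraries (log2 fold change 1.08, standard error 0.49, edgeR adjusted p = 0.911). Of the 6 genes of the list that passed the filter, 4 had a higher and 2 a lower fitted value and 0 were called, with a median log2 fold change of 0.12.

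Dendritic cells, which can carry the CD8 alpha chain alone, were checked with a list of 10 genes. *Clec9a*, a receptor of the class that carries it, had 0, 0, 0 and 1 counts, and *Flt3*, a growth factor receptor of dendritic cells, 0, 0, 0 and 2. *Xcr1*, the chemokine receptor of the same class, had 16, 12, 10 and 20 counts. *Itgax*, which encodes the integrin CD11c, had 13, 0, 0 and 64, high in the libraries with high macrophage genes. The summed list ran from 5.23 to 13.6 CPM, and none of the 4 genes that passed the filter was called.

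*Klrb1c* (chromosome 6, 128728503 to 128739233, minus strand) was counted 31, 19, 34 and 39 times, or 2.53, 1.78, 1.96 and 2.84 CPM. It was the only one of the 8 genes that was higher in both macrophage-rich libraries than in both others. Of the 12536 genes tested, 2864 were higher in the same way. The genotypes overlapped (log2 fold change 0.15, standard error 0.48, edgeR adjusted p = 0.990). *Cd79a*, *Cd79b* and *Cd8a* were lower in both macrophage-rich libraries, *Cd8a* on at most 11 counts, as were 3204 of the 12536 genes tested. The part of macrophage RNA in this was not tested. Among relatives of *Klrb1c*, *Klrb1a* and *Klrb1b* had at most 3 counts in any library, and *Klrb1f* had 43, 21, 15 and 4 counts. These relatives were looked up after the values were seen, because similar genes can share reads. How reads that map to several places were treated is not given in the sources used here.

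*Ncr1* (chromosome 7, 4289326 to 4296766, plus strand) had 10, 2, 3 and 1 counts. Only WT replicate 1 exceeded 3 counts, at 0.809 unscaled CPM with an exact 95% interval of 0.388 to 1.49. The interval of each of the other libraries overlapped it. Per kb of exon, *Klrb1c* was 1.61 times as high as *Ncr1* in WT replicate 1, with an exact 95% interval of 0.770 to 3.69, so an excess was not detectable there. The ratios of the other libraries were 4.94 (1.19 to 43.8), 5.89 (1.85 to 30.0) and 20.3 (3.43 to 821) in the same order, and these intervals overlapped.

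Other NK genes were described from a list of 20 that includes both. Among receptors of the NK gene complex, *Klra4* was at 0 in all 4 libraries, *Klre1* had 0, 1, 0 and 2 counts, *Klra8* 0, 0, 1 and 0, and *Klrd1*, which encodes CD94, 0, 1, 0 and 8. *Klrk1*, which encodes the receptor NKG2D, had 22, 8, 20 and 81 counts. In all, 11 of the 20 genes had under 10 counts in every library. The list without *Gzmb*, *Prf1*, *Nkg7* and *Eomes*, which activated T cells also use, summed to 7.44, 4.49, 6.10 and 12.8 CPM. *Prf1*, which encodes the pore-forming protein perforin, stood at 11.5, 14.2, 10.9 and 10.1 CPM, and *Gzmb*, which encodes granzyme B, at 5.31, 3.84, 1.5 and 2.62 CPM. Both were lower in both TfR1-deficient libraries than in both WT libraries, as were 18.9% of genes tested. Neither was called (edgeR adjusted p = 0.954 and 0.911). Of the 7 NK-list genes that passed the filter, 4 had a higher and 3 a lower fitted value and 0 were called.

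*Klrb1c* is also carried by NKT cells, whose transcription factor *Zbtb16* stood at 2.37, 1.59, 1.73 and 2.26 CPM, highest in the same libraries as *Klrb1c*. That rests on 29, 17, 30 and 31 counts, and 2864 of the 12536 genes tested were likewise higher in those libraries. The gamma-delta T-cell constant gene *Trgc1* stood at 2.94, 7.68, 12 and 9.26 CPM and *Trgc2* at 2.53, 3.37, 2.94 and 5.68 CPM. None of the 4 genes of that list that could be matched was called.

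**Figure D3:**
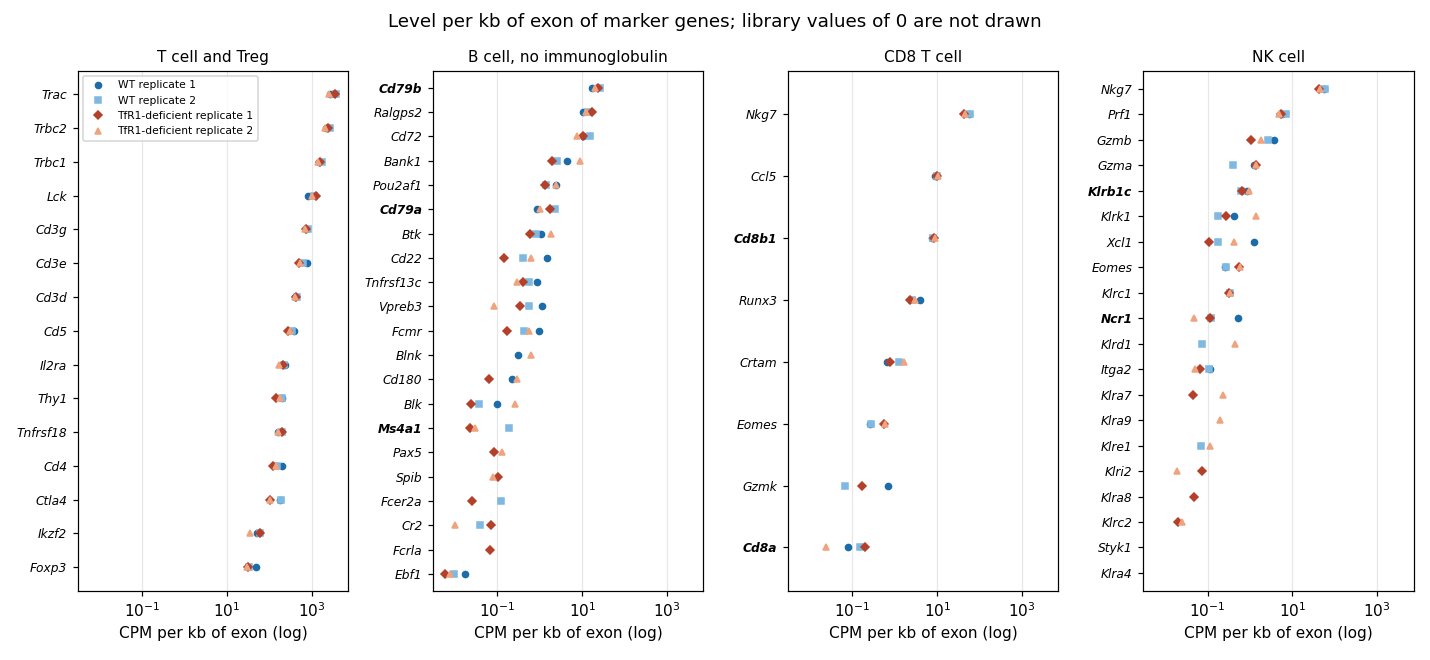
Level of each gene of the T-cell and Treg, B-cell, CD8 T-cell and NK lists in CPM per kb of exon on a log scale, with 1 point for each library and the 8 genes' names in bold where they belong to a list. The T-cell genes lay between 28.9 and 3706 CPM per kb, *Cd79b* led the B-cell list at 16.8 to 26.9, and *Cd8a* lay at 0.0233 to 0.202.

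Ordered by level per kb, the 8 genes kept the same first 3 places in all libraries: *Ighm*, then *Cd79b* at 16.8 to 26.9 CPM per kb, then *Cd8b1* at 7.61 to 8.69 CPM per kb. The ranges of these 3 did not overlap. *Cd79a*, at 0.842 to 2.31 CPM per kb, and *Klrb1c*, at 0.601 to 0.960, exchanged the next places between libraries, and their ranges overlapped. *Ncr1*, *Cd8a* and *Ms4a1* followed in varying order, from 0 to 0.531 CPM per kb, and differences between them were not tested.

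Between the genotypes, 5 of the 8 genes had enough counts to be tested: *Ighm*, *Cd79a*, *Cd79b*, *Cd8b1* and *Klrb1c*. None was called at an adjusted p under 0.05 with a change of at least 0.5 on the log2 scale, where 0% of the 12536 genes tested were called. At an unadjusted p under 0.05 with the same change, 0 of the 5 passed, beside 4.08% of all genes. *Cd79a* had a log2 fold change of -0.17 (standard error 0.67, edgeR adjusted p = 0.990) and *Cd79b* of 0.0026 (standard error 0.28, edgeR adjusted p = 0.999). The standard errors of *Cd79a* and *Klrb1c* exceeded their fold changes several times over, so a difference of moderate size was not detectable at these counts.

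*Ms4a1*, *Cd8a* and *Ncr1* did not pass the filter and have no test. Leaving out 1 library turned the sign of *Cd79a*, *Cd79b* and *Klrb1c*, while *Ighm* stayed between -0.40 and -0.13 and *Cd8b1* between 0.10 and 0.17. For *Cd79a* the value ran from -0.72 without WT replicate 1 to 0.72 without WT replicate 2. Without TfR1-deficient replicate 1 it was -0.64 and without TfR1-deficient replicate 2 it was 0.17.

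**Figure D4:**
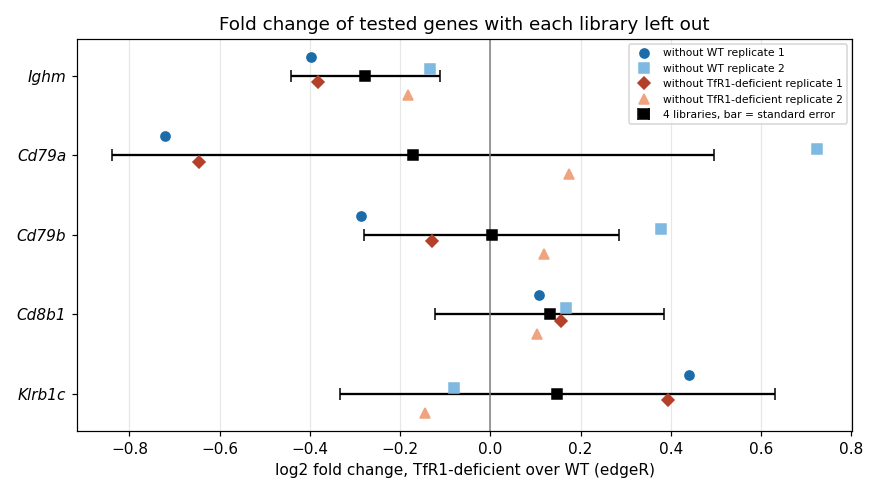
Log2 fold change of TfR1-deficient over WT libraries for the 5 genes tested, with all 4 libraries (black squares, bar of 1 standard error) and with each library left out in turn (coloured points). *Ighm* stayed below 0 and *Cd8b1* above 0 in each case, while *Cd79a*, *Cd79b* and *Klrb1c* fell on both sides.

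Genes with a profile across the 4 libraries like that of each tested gene were found by the root mean square distance of centred log2 CPM. The nearest with a symbol were *Cdc14b* and *Armcx2* for *Ighm*, at distances of 0.021 and 0.022, and *Scoc* and *Selk* for *Cd79b*, at 0.006 and 0.011. For *Cd79a* they were *A930002I21Rik*, *Rab11fip2* and *Btbd2*, at 0.047 to 0.073. For *Cd8b1* they were *Lrrc40*, *Mocs2* and *Ndufs8*, at 0.011 to 0.014, and for *Klrb1c* they were *Gtf2h4*, *Rbmxrt* and *Shmt1*, at 0.005 to 0.027. No other of the 8 genes and no other B-cell, CD8 or NK gene of the lists was among them. With only 4 libraries such likeness is common: 1131 of 12535 genes lay within 0.1 of *Cd8b1* and 430 within 0.1 of *Ighm*.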

How the data were processed

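RNA of sorted mouse Treg cells was measured in 4 libraries, 2 per genotype, grouped by their titles. The authors deposited raw, unpooled whole-number counts for each Ensembl gene. The submitters' processing notes name Trim Galore 0.6.7, STAR 2.7.9a, featureCounts and mm10, whereas the paper's methods name mm9, so positions from GENCODE vM1 (mm9) serve only to describe genes, their lengths and receptor segments. Strand and multi-mapping settings are not given in the sources used here. Symbols were found for 32799 of 47729 identifiers, and identifiers without one held 0.907% of counts.

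With TMM scaling, edgeR 4.0.16 (R 4.3.3) fitted genotype alone to the 12536 genes passing filterByExpr, by quasi-likelihood, with Benjamini-Hochberg adjustment over all of them. Calls have an adjusted p under 0.05 and a log2 change of 0.5 or more in either direction. Standard errors are the fold change over the square root of F. Log2 CPM uses a prior count of 2. Shares of counts have exact Clopper-Pearson 95% intervals, and a count of 0 allows up to 3 counts. Intervals and limits cover counting error only. Libraries of 1 genotype differed far beyond counting noise (chi-square per degree of freedom 29.3 and 45.7), so none was treated as a repeat.

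The 8 genes, the marker lists and the tests were chosen with earlier results of these data known. Named were the 8 genes, the listed markers and the 3 nearest profiles of each tested gene. Genes chosen after their values were seen are marked. The fits were tested on simulated counts. Alternatives were DESeq2 1.42.0, other scaling, other count filters, no minimum change, scaling to *Cd3d*, *Cd3e* and *Cd3g*, another reference for *Ighm*, another prior count, a replicate block and leaving out each library. *Ighd*, *Igha* and 8 other listed genes were not matched and are not analysed here, and 1 marker gene is not reported here.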

Additional observations from a re-analysis of the deposited data

How the results depend on the processing

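None of the 5 tested genes was called under any alternative that gives a p-value, and the fold changes of *Ighm* and *Cd8b1* kept their sign in all alternatives. With each library left out in turn, log2 fold changes ran from -0.40 to -0.13 for *Ighm*, -0.72 to 0.72 for *Cd79a*, -0.29 to 0.38 for *Cd79b*, 0.10 to 0.17 for *Cd8b1* and -0.14 to 0.44 for *Klrb1c*. Relative to *Cd3d*, *Cd3e* and *Cd3g*, with no test, they were -0.044 for *Ighm*, 0.044 for *Cd79a*, 0.23 for *Cd79b*, 0.37 for *Cd8b1* and 0.39 for *Klrb1c*. The difference in *Ighm* against other B-cell genes ran from -0.53 to -0.064 with a library left out and was -0.29 against the mean of the B-cell list. Against that mean the genotypes overlapped, at 9.78 and 10.33 in WT and 10.11 and 9.415 in TfR1-deficient libraries (two-sided exact permutation test, p = 0.667). Relative to the same 3 *Cd3* genes, *Cd8b1* stood at 10.2 CPM in WT and 13.2 CPM in TfR1-deficient libraries, and all other levels moved by less than 1 SD.

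Over all genes edgeR called 0, with 200 higher and 311 lower at an unadjusted p under 0.05, whereas DESeq2 called 6 higher and 33 lower. With at least 1 count in any library (22368 genes) edgeR called 167 higher and 95 lower. That fit included *Ms4a1*, *Cd8a* and *Ncr1*, at log2 fold changes of -1.68, 0.03 and -1.93 with adjusted p-values of at least 0.921. The cause of these differences was not tested. Without WT replicate 1 the unadjusted counts were 268 and 140. Total library sizes made 52.5% of the unadjusted calls lower, against 60.9%.

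The replicate numbers did not pair the libraries (correlation -0.609). With a replicate block edgeR called 0 higher and 0 lower (70 and 141 unadjusted) and with the crossed replicate block, chosen after seeing the data, 150 and 210 (596 and 519 unadjusted). The block gave *Ighm* a log2 fold change of -0.27 and changed no call among the 5 genes. Few counts limit *Ms4a1*, *Cd8a* and *Ncr1*.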
